A study of Mus musculus with 4 samples.

Results

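The list described here holds 49 genes of fast and general skeletal muscle: parts of the sarcomere, of excitation-contraction coupling and of muscle energy supply. The genes were listed by name with earlier results of these data known. All 49 were measured, and they are 49 of the 19938 genes measured in all. The samples were subcutaneous adipose tissue (SAT) of male C57Bl6 mice, 16 weeks old, on 4 Affymetrix MoGene 1.0 ST arrays with 1 array per group. The groups were cKO-HFD and cKO-CT (AP2 Cre NAPE PLD lox/lox, on high fat diet and on control diet) and WT-HFD and WT-CT (NAPE PLD lox/lox, on the same diets). All 4 groups thus carried the floxed *Napepld* allele, and the cKO groups also carried Cre under the *Fabp4* (aP2) promoter, which is active in adipocytes. Diets were given for 8 weeks. RNA was pooled before labelling, from 5 mice per group according to the methods and from 4 to 5 according to the labels, with mice chosen on RNA quality. An array is therefore 1 sample of its group, the spread between mice was not measured, and no difference below has a replicate check or a p-value.

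Skeletal muscle fibres contract when myosin heads of the thick filament pull on actin of the thin filament, within sarcomeres bounded by Z discs. A nerve impulse opens ryanodine receptors of the sarcoplasmic reticulum, calcium binds troponin on the thin filament, and SERCA pumps take the calcium back. Fibre types are named after their myosin heavy chain: IIB, IIX and IIA fibres are fast and carry *Myh4*, *Myh1* and *Myh2*, and slow type I fibres carry *Myh7*. White adipocytes build no sarcomeres, and mice have a sheet of fast muscle in the skin next to the subcutaneous fat.

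The values are log2 levels per probe set, made by the authors with RMA, and the level of a gene is the mean over the probe sets that name only that gene. Of the members, 46 had 1 probe set, and *Trdn*, *Jph1* and *Jph2* had more. The 95th percentile of 1027 olfactory receptor genes, most of which are silent outside the nose, served as background and lay between 5.28 and 5.50 on the log2 scale. A difference between arrays counts as a rise or a fall from 1.5-fold on, the size also used in the study. Where the dimmer array lay below background, the fold is given as a lower bound, the bright level over the background of the dim array. *Napepld*, the targeted gene, had levels of 7.94 on cKO-HFD and 8.01 on WT-HFD, and of 7.78 on cKO-CT and 8.31 on WT-CT. It passed 1.5-fold in neither genotype comparison on the arrays, and whether its probes cover the floxed exons is not known here. In other assays, the study found lower *Napepld* mRNA in SAT of cKO mice on both diets and no detectable protein in their white fat. The adipocyte markers were bright on all 4 arrays, with medians over 10 genes of 12.47 on cKO-HFD, 12.32 on WT-HFD, 12.47 on cKO-CT and 12.35 on WT-CT.

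Most members were highest on the WT-HFD array and lowest on the cKO-HFD array, with cKO-CT and WT-CT close to each other in between. Of the 49 members, 44 fell in cKO-HFD over WT-HFD and none rose, at 1.5-fold, with a median log2 ratio of -3.24. Over all genes, 2.11% fell and 1.04% rose in that comparison, with a median of 0.03. In WT-HFD over WT-CT, 40 members rose and none fell (median 1.56), against 3.16% of all genes that rose and 2.67% that fell. In cKO-HFD over cKO-CT, 37 members fell and none rose (median -1.35), against 2.17% of all genes that fell and 1.82% that rose. In cKO-CT over WT-CT, 1 member rose, 4 fell and 44 stayed within 1.5-fold (median -0.11), against 1.64% of all genes that rose and 1.52% that fell.

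Counted by pattern, 42 of 49 members were highest on WT-HFD, lowest on cKO-HFD and at least 1.5-fold apart between these arrays, a pattern held by 1.46% of all genes. The background was exceeded by 36 members on all 4 arrays and by another 10 on WT-HFD but not on cKO-HFD, and 3 members (*Klhl40*, *Casq2* and *Sln*) stayed below it on every array. On cKO-HFD 13 members lay below background, against 3 on each of WT-HFD, cKO-CT and WT-CT. The linear levels (2 to the power of the log2 level) of the 49 members summed to 6680 on cKO-HFD and 76900 on WT-HFD, and to 25100 on cKO-CT and 25300 on WT-CT. These sums made up 0.216%, 2.47%, 0.785% and 0.826% of the sums over all genes on the same arrays. The summed level of the members was thus lowest on cKO-HFD and 11.5 times as high on WT-HFD. In pooled tissue RNA, fewer muscle fibres and less muscle RNA per fibre cannot be told apart, and whether muscle tissue in the dissected fat accounts for the levels was not tested.

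**Figure D1:**
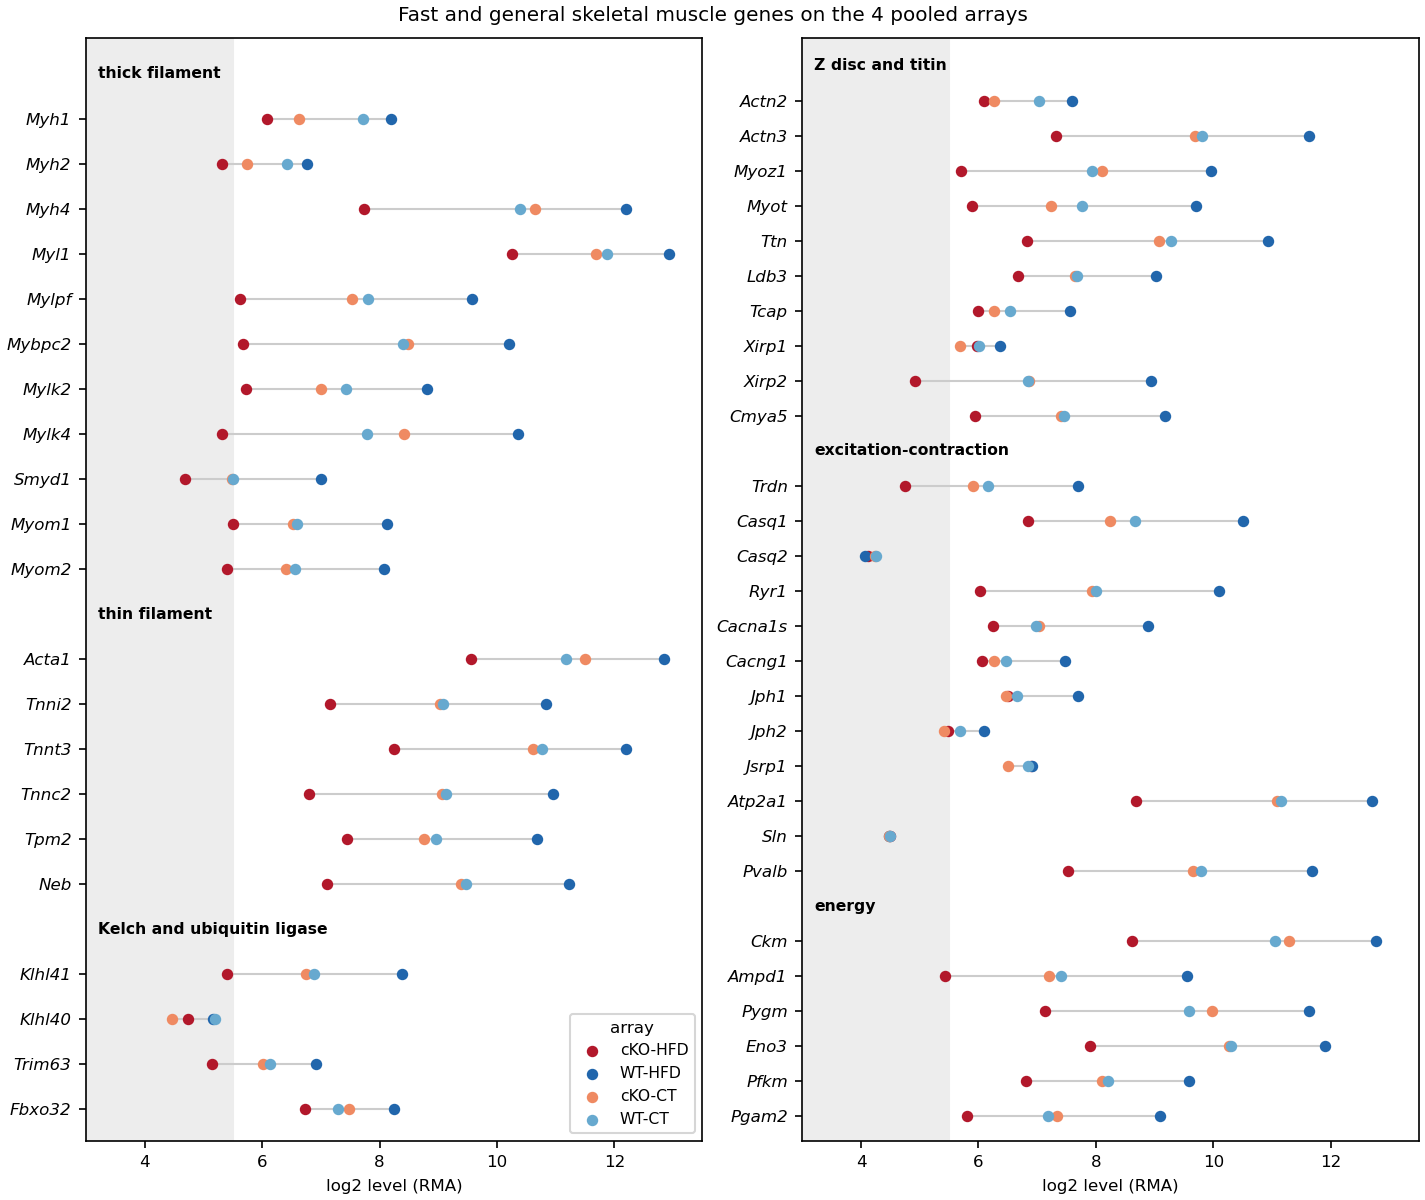
Log2 level (horizontal axis) of each of the 49 members by role, with 1 point per array (cKO-HFD, WT-HFD, cKO-CT, WT-CT), a grey line spanning the points and grey shading up to 5.50, the highest of the 4 background levels. WT-HFD lies furthest right for 46 members and cKO-HFD furthest left for 42, and the cKO-CT and WT-CT points lie close together except for *Myh1*, *Myh2*, *Actn2* and a few others.

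Among the myosin heavy chains, *Myh4*, the motor of IIB fibres, had log2 levels of 7.73 on cKO-HFD, 12.20 on WT-HFD, 10.64 on cKO-CT and 10.40 on WT-CT. *Myh1*, the IIX motor, had 6.09 on cKO-HFD, 8.20 on WT-HFD, 6.62 on cKO-CT and 7.72 on WT-CT. *Myh2*, the IIA motor, had 5.31 on cKO-HFD, which is below background, 6.76 on WT-HFD, 5.74 on cKO-CT and 6.42 on WT-CT. WT-HFD was highest and cKO-HFD lowest for all 3, but the control diet arrays were close for *Myh4* and apart for *Myh1* and *Myh2*. The folds of cKO-HFD over WT-HFD were 22.0-fold lower for *Myh4*, 4.30-fold lower for *Myh1* and at least 2.39-fold lower for *Myh2*. In WT-HFD over WT-CT, *Myh4* rose 3.48-fold, and the log2 ratios of *Myh1* (0.48) and *Myh2* (0.34) did not pass 1.5-fold. In cKO-CT over WT-CT, *Myh1* fell by 1.10 and *Myh2* by 0.68 on the log2 scale, and *Myh4* had 0.24. These genes are near copies of each other in tandem on chromosome 11, and how far their probe sets separate them was not tested.

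The stretches before the start sites of these 3 genes are shown because the genes are neighbours and differ in their pattern, and that of *Acta1* because it is a thin filament gene of the main pattern. Each line gives 250 bases up to the start site, from RefSeq (GRCm38.p6), 5′ to 3′ on the strand of the gene. *Myh4* lies at chr11:67237562-67237811 (+), *Myh1* at chr11:67199852-67200101 (+), *Myh2* at chr11:67170777-67171026 (+) and *Acta1* at chr8:123894776-123895025 (-). Capitals mark matches, on either strand, to CAGCTG (the E-box form bound by myogenic factors of the MyoD family), TATAAA, the MEF2 motif or the CArG motif of serum response factor.
Myh4: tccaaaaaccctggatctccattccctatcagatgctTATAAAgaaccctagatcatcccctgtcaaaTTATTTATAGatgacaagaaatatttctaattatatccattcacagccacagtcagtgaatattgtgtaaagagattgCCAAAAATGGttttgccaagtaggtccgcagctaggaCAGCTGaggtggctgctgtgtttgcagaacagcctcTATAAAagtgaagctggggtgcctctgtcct
Myh1: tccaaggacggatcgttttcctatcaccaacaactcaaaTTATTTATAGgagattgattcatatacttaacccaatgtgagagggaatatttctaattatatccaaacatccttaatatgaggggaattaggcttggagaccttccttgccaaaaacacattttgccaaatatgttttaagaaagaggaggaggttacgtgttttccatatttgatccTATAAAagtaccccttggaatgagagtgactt
Myh2: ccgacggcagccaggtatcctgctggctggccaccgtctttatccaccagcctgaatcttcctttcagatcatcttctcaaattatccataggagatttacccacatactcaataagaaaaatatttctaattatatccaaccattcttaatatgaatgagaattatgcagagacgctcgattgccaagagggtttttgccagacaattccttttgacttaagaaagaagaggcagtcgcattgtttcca
Acta1: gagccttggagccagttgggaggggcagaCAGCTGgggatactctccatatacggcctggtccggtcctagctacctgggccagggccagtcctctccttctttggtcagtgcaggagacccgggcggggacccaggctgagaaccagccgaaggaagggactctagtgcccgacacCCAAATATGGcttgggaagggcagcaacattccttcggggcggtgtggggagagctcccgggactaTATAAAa
The *Myh4* stretch held the same MEF2 letters as the *Myh1* stretch, and in each they overlap a reverse match to TATAAA. It also held a CArG match and a CAGCTG, of which the *Myh1* stretch had neither, and the *Myh2* stretch had no match to any of the 4 motifs.

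Of the 49 members, 32 had such stretches in the RefSeq table, 38 in all. CAGCTG lay in 44.7% of these 38, against 13.0% of all 32851 stretches of the same length in the table, and the more general CANNTG, which includes it, in 78.9% against 66.2%. The MEF2 motif lay in 23.7% against 2.92% and the CArG motif in 13.2% against 1.47%. TATAAA lay in 15.8% against 12.4% and CATTCC, the MCAT motif of TEAD factors, in 21.1% against 12.6%. A match is a description of letters, and *Casq2*, below background on every array, had a MEF2 match too.

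The light chains and other thick filament genes followed *Myh4*. *Mylpf*, the fast regulatory light chain, had log2 levels of 5.62 on cKO-HFD, 9.57 on WT-HFD, 7.53 on cKO-CT and 7.81 on WT-CT, and was 15.4-fold lower in cKO-HFD than in WT-HFD. *Myl1*, the fast essential light chain, had 10.26 on cKO-HFD, 12.93 on WT-HFD, 11.68 on cKO-CT and 11.87 on WT-CT, a fall of 6.35-fold. *Mybpc2*, the fast myosin-binding protein C, had 5.68 on cKO-HFD, 10.20 on WT-HFD, 8.48 on cKO-CT and 8.40 on WT-CT, a fall of 23.0-fold. Each had its highest value on WT-HFD and its lowest on cKO-HFD, and the log2 ratios of cKO-CT over WT-CT were -0.28 for *Mylpf*, -0.19 for *Myl1* and 0.08 for *Mybpc2*. *Mylk4*, a myosin light chain kinase family member, had 5.32 on cKO-HFD, below background, 10.35 on WT-HFD, 8.42 on cKO-CT and 7.79 on WT-CT. It was at least 28.9-fold lower in cKO-HFD than in WT-HFD, and it was the only member that rose in cKO-CT over WT-CT (0.62 on the log2 scale, and 0.53 after cyclic loess, under 1.5-fold). *Mylk2*, the kinase of skeletal muscle that phosphorylates the regulatory light chain, had 5.73 on cKO-HFD, 8.81 on WT-HFD, 7.01 on cKO-CT and 7.43 on WT-CT. The M band genes *Myom1* and *Myom2* tie thick filaments together, and *Myom1* was 6.12-fold lower in cKO-HFD than in WT-HFD. *Myom2* lay below background on cKO-HFD (5.40), against 8.08 on WT-HFD, and the log2 ratios in WT-HFD over WT-CT were 1.53 for *Myom1* and 1.52 for *Myom2*. *Smyd1*, a methyltransferase needed for sarcomere assembly, lay below background on cKO-HFD and was at least 2.85-fold lower there than on WT-HFD. All 11 genes of this group fell in cKO-HFD over WT-HFD, and 9 rose in WT-HFD over WT-CT.

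All 6 thin filament genes fell in cKO-HFD over WT-HFD and rose in WT-HFD over WT-CT, and none passed 1.5-fold in cKO-CT over WT-CT. *Acta1*, skeletal muscle actin, had log2 levels of 9.55 on cKO-HFD, 12.85 on WT-HFD, 11.50 on cKO-CT and 11.17 on WT-CT. *Tnnc2*, the calcium sensor of fast troponin, had 6.79 on cKO-HFD, 10.96 on WT-HFD, 9.06 on cKO-CT and 9.13 on WT-CT. *Tnni2*, its inhibitory subunit, had 7.16 on cKO-HFD, 10.83 on WT-HFD, 9.03 on cKO-CT and 9.08 on WT-CT. The subunits of fast troponin moved together, with *Tnnt3*, which binds tropomyosin, at log2 ratios of -3.95 in cKO-HFD over WT-HFD and 1.43 in WT-HFD over WT-CT. *Neb*, the giant nebulin along the filament, had 7.11 on cKO-HFD, 11.23 on WT-HFD, 9.39 on cKO-CT and 9.48 on WT-CT. *Tpm2*, a tropomyosin, was 9.42-fold lower in cKO-HFD than in WT-HFD. In this group the folds of cKO-HFD below WT-HFD lay between 9.42 and 18.0.

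Of the 10 Z disc and titin genes, 9 fell in cKO-HFD over WT-HFD and 8 rose in WT-HFD over WT-CT. *Actn3*, the actinin of fast glycolytic fibres, had log2 levels of 7.32 on cKO-HFD, 11.63 on WT-HFD, 9.69 on cKO-CT and 9.81 on WT-CT. *Actn2*, the actinin of all muscle fibres and of the heart, had 6.10 on cKO-HFD, 7.60 on WT-HFD, 6.26 on cKO-CT and 7.03 on WT-CT. The actinins thus differed, since *Actn3* fell 19.9-fold and *Actn2* 2.83-fold in cKO-HFD over WT-HFD, while *Actn2* alone of the pair fell in cKO-CT over WT-CT (by 0.77 on the log2 scale). On WT-HFD *Actn2* lay closer to background than *Actn3*, so it had less room to fall. *Ttn*, the giant elastic protein that runs from Z disc to M band, had 6.83 on cKO-HFD, 10.93 on WT-HFD, 9.07 on cKO-CT and 9.28 on WT-CT. *Myoz1*, which links calcineurin to the Z disc of fast fibres, had 5.70 on cKO-HFD, 9.96 on WT-HFD, 8.11 on cKO-CT and 7.93 on WT-CT. *Myot* (myotilin) had 5.89 on cKO-HFD, 9.70 on WT-HFD, 7.24 on cKO-CT and 7.76 on WT-CT. For *Myot* the log2 ratio of cKO-CT over WT-CT was -0.51, and -0.60 after cyclic loess, past 1.5-fold. *Xirp2*, an actin-binding protein of the muscle-tendon junction, lay below background on cKO-HFD (4.92) and was at least 10.8-fold lower there than on WT-HFD (8.94). *Cmya5* (-3.24), *Ldb3* (-2.36) and *Tcap* (-1.57), the cap of titin, had smaller log2 ratios in cKO-HFD over WT-HFD. *Xirp1*, a relative of *Xirp2* tied to muscle damage and remodelling, passed 1.5-fold in no comparison, with 5.98 on cKO-HFD, 6.37 on WT-HFD, 5.68 on cKO-CT and 6.01 on WT-CT.

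Among the genes of sarcomere protein turnover, *Klhl41*, a Kelch protein that stabilises nebulin, had log2 levels of 5.40 on cKO-HFD, 8.39 on WT-HFD, 6.75 on cKO-CT and 6.88 on WT-CT, and was at least 7.42-fold lower in cKO-HFD than in WT-HFD. *Fbxo32* (atrogin-1), a ubiquitin ligase of muscle atrophy, had 6.73 on cKO-HFD, 8.25 on WT-HFD, 7.48 on cKO-CT and 7.30 on WT-CT. *Trim63* (MuRF1), the other ligase of that kind, had 5.15 on cKO-HFD, 6.91 on WT-HFD, 6.02 on cKO-CT and 6.14 on WT-CT. The ligases kept the order of the arrays of the sarcomere genes, with folds of 2.87 for *Fbxo32* and at least 2.65 for *Trim63* between cKO-HFD and WT-HFD. *Klhl40* passed 1.5-fold in cKO-CT over WT-CT (-0.73) but lay below background on every array, so its ratio is not resolved.

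Genes of excitation-contraction coupling ranged from -4.16 to 0.04 in the log2 ratio of cKO-HFD over WT-HFD and from -0.43 to 0.05 in that of cKO-CT over WT-CT. *Ryr1*, the calcium release channel, had log2 levels of 6.03 on cKO-HFD, 10.10 on WT-HFD, 7.94 on cKO-CT and 8.01 on WT-CT. *Atp2a1*, the SERCA pump of fast fibres, had 8.69 on cKO-HFD, 12.71 on WT-HFD, 11.09 on cKO-CT and 11.15 on WT-CT. *Casq1*, which stores calcium in fast fibres, had 6.85 on cKO-HFD, 10.51 on WT-HFD, 8.24 on cKO-CT and 8.67 on WT-CT. These 3 and *Pvalb*, the calcium buffer parvalbumin of fast fibres (7.52 on cKO-HFD, 11.68 on WT-HFD, 9.66 on cKO-CT and 9.79 on WT-CT), were 12.7- to 17.9-fold lower in cKO-HFD than in WT-HFD. The voltage sensor of the T tubule was lower by less, with 6.24 on cKO-HFD, 8.88 on WT-HFD, 7.03 on cKO-CT and 6.98 on WT-CT for its pore subunit *Cacna1s*. Its gamma subunit *Cacng1* had a log2 ratio of -1.42 in cKO-HFD over WT-HFD. The junctophilins, which hold T tubule and reticulum together, were 2.30-fold (*Jph1*) and at least 1.51-fold (*Jph2*, below background on cKO-HFD) lower in cKO-HFD than in WT-HFD, and the *Jph2* call is lost with the brighter of its 2 probe sets alone (-0.48). *Jsrp1*, a protein of the same junction, had 6.90 on cKO-HFD, 6.91 on WT-HFD, 6.51 on cKO-CT and 6.84 on WT-CT and passed 1.5-fold in no comparison. *Casq2*, the calsequestrin of heart and slow fibres, lay between 4.07 and 4.26, and *Sln* (sarcolipin), a SERCA inhibitor of atria and slow muscle in mice, between 4.47 and 4.50. Both were below background on all 4 arrays. Of the 12 genes of this group, 9 fell in cKO-HFD over WT-HFD, 8 rose in WT-HFD over WT-CT and none passed 1.5-fold in cKO-CT over WT-CT.

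*Trdn* (triadin), which couples calsequestrin to the ryanodine receptor, had 19 probe sets, and their mean was 4.75 on cKO-HFD, 7.70 on WT-HFD, 5.90 on cKO-CT and 6.17 on WT-CT. The mean hides a wide range of levels, since 8 probe sets lay above background on all 4 arrays and 16 on at least 1. All 19 had log2 ratios below 0 in cKO-HFD over WT-HFD, with a median of -3.13 and a range of -4.81 to -0.12, and 18 passed 1.5-fold. In WT-HFD over WT-CT 18 lay above 0 and 17 passed 1.5-fold, with a median of 1.62. In cKO-CT over WT-CT 15 lay below 0 and 4 above, and 3 passed 1.5-fold, all downwards, with a median of -0.19. Probe sets of 1 gene share the RNA and are not replicates.

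**Figure D2:**
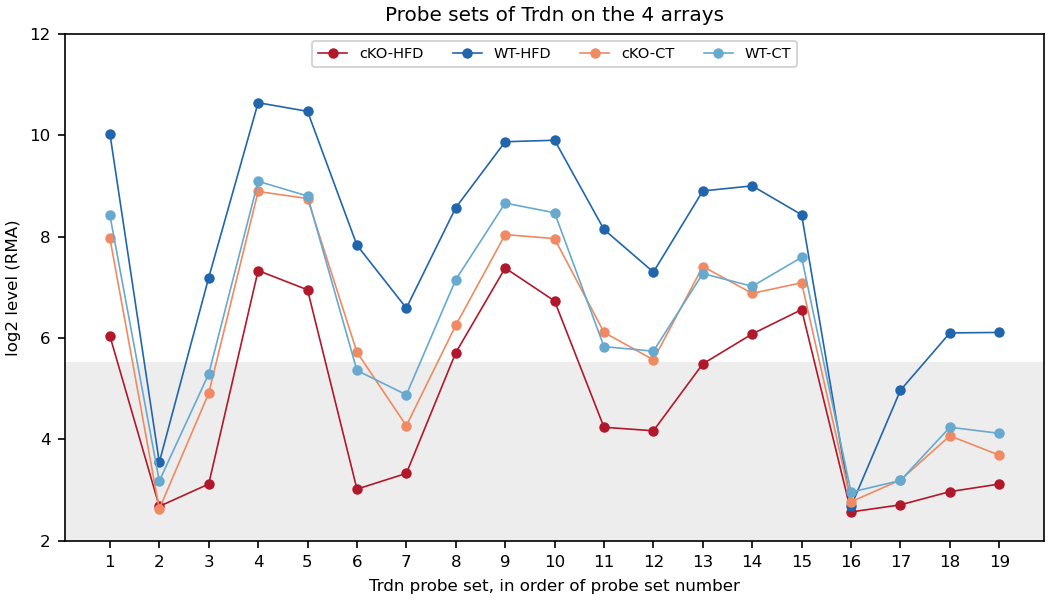
Log2 level (vertical axis) of the 19 *Trdn* probe sets, in order of probe set number (horizontal axis), with 1 line per array and grey shading up to 5.50, the highest of the 4 background levels. The WT-HFD line lies above the cKO-HFD line at each of the 19, by 0.12 to 4.81, and 8 of the 19 lie above the shading on cKO-HFD.

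All 6 energy genes fell in cKO-HFD over WT-HFD and rose in WT-HFD over WT-CT, and none passed 1.5-fold in cKO-CT over WT-CT. *Ckm*, the creatine kinase that regenerates ATP at the sarcomere, had log2 levels of 8.62 on cKO-HFD, 12.78 on WT-HFD, 11.29 on cKO-CT and 11.05 on WT-CT. *Pygm*, the muscle glycogen phosphorylase, had 7.13 on cKO-HFD, 11.63 on WT-HFD, 9.98 on cKO-CT and 9.59 on WT-CT. *Eno3*, the muscle enolase, had 7.90 on cKO-HFD, 11.90 on WT-HFD, 10.26 on cKO-CT and 10.31 on WT-CT. The folds of cKO-HFD below WT-HFD were 17.8 for *Ckm*, 22.6 for *Pygm* and 16.0 for *Eno3*. *Ampd1*, which deaminates AMP in working muscle, lay below background on cKO-HFD (5.43) and stood at 9.56 on WT-HFD, a fall of at least 16.7-fold. *Pgam2*, the muscle phosphoglycerate mutase, fell 9.79-fold. *Pfkm*, the muscle subunit of phosphofructokinase, fell 6.80-fold, with 6.81 on cKO-HFD, 9.58 on WT-HFD, 8.11 on cKO-CT and 8.21 on WT-CT.

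The ratios of HFD over CT ran in opposite directions between the cKO arrays and between the WT arrays for most members. Past 1.5-fold, HFD over CT was down in cKO and up in WT for 37 of 49 members, or 75.5%, against 94 of all 19938 genes, or 0.471%. No member moved the other way, and 8 of all genes did. The 37 include *Smyd1*, *Trdn* and *Trim63*, which lay below background on cKO-HFD. Their falls in cKO-HFD over cKO-CT are not resolved at 1.5-fold, with bounds of 1.32-fold for *Trdn*, 1.44-fold for *Trim63* and none for *Smyd1*. The median of the cKO diet ratio minus the WT diet ratio was -3.04 on the log2 scale over the members and 0.02 over all genes. Each diet ratio rests on 1 array per side, so neither an effect of the diet nor a difference between genotypes was tested.

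**Figure D3:**
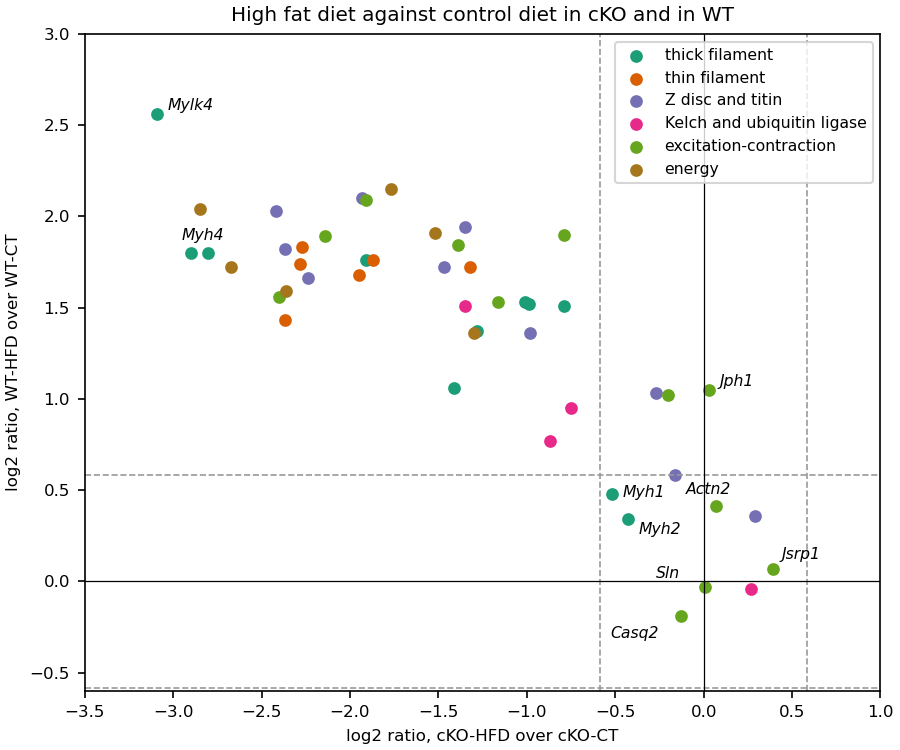
Log2 ratio of cKO-HFD over cKO-CT (horizontal axis) against that of WT-HFD over WT-CT (vertical axis), with 1 point per member coloured by role and dashed lines at 1.5-fold. Most points lie in the upper left, down in cKO and up in WT, with *Mylk4* at -3.09 and 2.56, and *Myh1*, *Myh2*, *Actn2*, *Jsrp1*, *Casq2* and *Sln* nearer to 0 on both axes.

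On control diet, 1 member rose and 4 fell in cKO-CT over WT-CT, and *Myh4* was not among them. These are 2.04% and 8.16% of the members, against 1.64% and 1.52% of all genes. Besides *Klhl40*, the members that fell in cKO-CT over WT-CT were *Myh1*, *Actn2* and *Myh2*, by 1.10, 0.77 and 0.68 on the log2 scale. Of the members, 6 (*Myh1*, *Myh2*, *Actn2*, *Mylk4*, *Ttn* and *Trdn*) are also in a list of changed genes that was drawn up from these same arrays, so their direction is not independent evidence. Without them 1 member (*Klhl40*, below background) fell and none rose. Set against the ratio of *Myh4*, the log2 ratio of cKO-CT over WT-CT differed by -1.34 for *Myh1*, -0.92 for *Myh2* and -1.01 for *Actn2*.

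Of the genes of slow and oxidative fibres, 3 above background on at least 3 arrays also fell on control diet. *Mybpc1*, the slow myosin-binding protein C, had log2 levels of 5.89 on cKO-HFD, 7.64 on WT-HFD, 5.39 on cKO-CT and 7.06 on WT-CT. *Mb*, the oxygen store myoglobin, had 6.54 on cKO-HFD, 8.43 on WT-HFD, 6.82 on cKO-CT and 8.04 on WT-CT. *Myh7*, the slow motor, had 5.78 on cKO-HFD, 6.42 on WT-HFD, 5.25 on cKO-CT, below background, and 6.43 on WT-CT. For all 3, both cKO arrays lay below both WT arrays, while for *Myh4* cKO-CT lay above WT-CT. The log2 ratios of cKO-CT over WT-CT were -1.67 for *Mybpc1* and -1.22 for *Mb*, and *Myh7* was at least 2.22-fold lower. Over the 14 slow-fibre genes, 5 passed 1.5-fold downwards, none upwards and 9 neither way in cKO-CT over WT-CT (median -0.35). Of these 5, *Myoz2* lay below background on both arrays and *Myl2* was at least 1.14-fold lower, so only *Mybpc1*, *Mb* and *Myh7* are resolved at 1.5-fold. Others of the list did not pass it, with -0.49 for *Tnnc1*, 0.06 for *Atp2a2* and 0.11 for *Csrp3*. In WT-HFD over WT-CT, where 40 of 49 fast and general genes rose, none of the 14 passed 1.5-fold upwards and 1 did downwards, *Myl2*, below background on WT-HFD and at least 1.04-fold lower there (median 0.04). In cKO-HFD over WT-HFD 4 of the 14 passed it downwards, *Myoz2* again below background on both arrays (median -0.31). The median levels of the 14 were 5.80 on cKO-HFD, 5.94 on WT-HFD, 5.44 on cKO-CT and 5.82 on WT-CT, close to background. List medians near 0 thus do not show that slow fibres were unchanged. The genes compared with *Myh4* here were grouped by fibre type after their values were seen, and the differences were not tested.

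**Figure D4:**
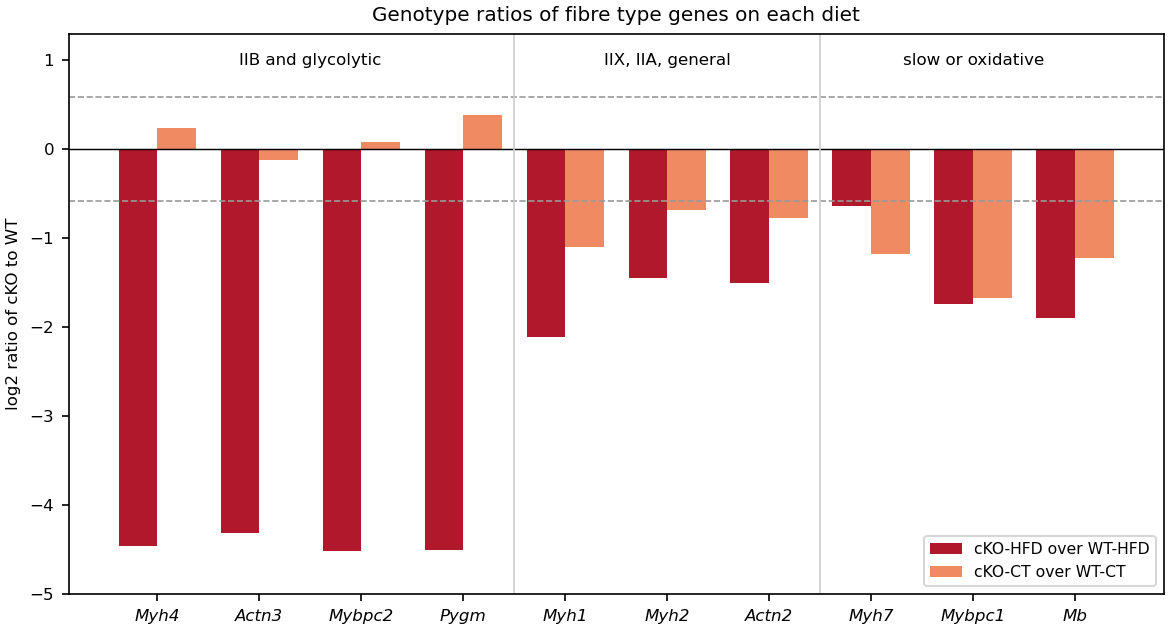
Log2 ratio of cKO to WT (vertical axis) for 10 muscle genes, on high fat diet (cKO-HFD over WT-HFD) and on control diet (cKO-CT over WT-CT), with 1 bar per gene and diet, no error bars since each group has 1 array, and dashed lines at 1.5-fold. *Myh4*, *Actn3*, *Mybpc2* and *Pygm* have bars between -4.52 and -4.31 on high fat diet and between -0.12 and 0.39 on control diet, and the other 6 genes lie at or below -0.64 on both diets.

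Other skeletal muscle genes outside the list moved in the same directions, with smaller medians. Of 57 measured, 44 fell in cKO-HFD over WT-HFD (median -1.34) and 37 rose in WT-HFD over WT-CT (median 0.93). On cKO-HFD 31 of these 57 lay below background, against 13 of the 49 members. Their median level on WT-HFD was 6.73, against 9.18 for the members. Background thus limits their ratios more, and some of the 44 falls are not resolved at 1.5-fold. In cKO-HFD over cKO-CT 19 fell and 38 stayed within 1.5-fold (median -0.38), and 2 fell in cKO-CT over WT-CT. Past 1.5-fold, HFD over CT was down in cKO and up in WT for 33.3% of them, against 75.5% of the members. Some of these falls in cKO-HFD over cKO-CT are not resolved at 1.5-fold. There cKO-HFD lay below background, with bounds down to 1.09-fold or none. *Tmod4*, which caps thin filaments in fast fibres, had log2 levels of 5.63 on cKO-HFD, 9.96 on WT-HFD, 8.07 on cKO-CT and 7.95 on WT-CT. *Apobec2*, a muscle protein of the deaminase family, had 5.71 on cKO-HFD, 8.97 on WT-HFD, 7.16 on cKO-CT and 7.78 on WT-CT. *Ppp1r3a*, which targets a phosphatase to glycogen, was at least 4.51-fold lower in cKO-HFD than in WT-HFD, and *Txlnb* at least 5.91-fold lower. Together the member list, the other skeletal muscle genes and the slow-fibre genes made up 92 of the 420 genes that fell in cKO-HFD over WT-HFD, or 21.9%, with 44 of them members. They made up 77 of the 631 genes that rose in WT-HFD over WT-CT (12.2%) and 11 of the 303 that fell in cKO-CT over WT-CT (3.63%). Among the 20 genes with the lowest log2 ratio in cKO-HFD over WT-HFD, all 20 were in these lists and 19 were members. The lists were chosen with earlier results of these data known, so these shares and ranks are not independent evidence.

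Markers of muscle stem cells and developing muscle did not pass 1.5-fold in any comparison. Of 11 such genes, 4 lay above background on cKO-HFD, 3 on WT-HFD, 4 on cKO-CT and 5 on WT-CT. The stem cell gene *Pax7* stood at 5.86 on cKO-HFD, 5.64 on WT-HFD, 5.61 on cKO-CT and 5.82 on WT-CT, close to background throughout. *Myod1* had 5.83 on cKO-HFD, 5.79 on WT-HFD, 5.80 on cKO-CT and 6.08 on WT-CT. *Mymk* had 5.97 on cKO-HFD, 5.76 on WT-HFD, 5.88 on cKO-CT and 5.78 on WT-CT. Of 11 heart muscle genes 8 lay above background on cKO-HFD, 6 on WT-HFD, 7 on cKO-CT and 8 on WT-CT, and their median log2 ratio in cKO-HFD over WT-HFD was 0.13. *Myh6*, the cardiac motor, stood at 4.70 on cKO-HFD, 4.78 on WT-HFD, 4.47 on cKO-CT and 5.16 on WT-CT, below background on all 4. Of the heart genes only *Sbk2* fell in cKO-HFD over WT-HFD (-0.94), with *Mybpc3* at 0.53 and *Actc1*, cardiac actin, at -0.50. *Actc1* also fell in cKO-CT over WT-CT (-0.67). *Myl4*, an atrial light chain, was higher on the HFD arrays (9.48 on cKO-HFD and 9.01 on WT-HFD) than on cKO-CT (8.48) and WT-CT (8.26).

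Markers of other cells moved less between the HFD arrays. In cKO-HFD over WT-HFD none of 10 adipocyte markers passed 1.5-fold (median 0.10, summed linear level 54900 on cKO-HFD and 49800 on WT-HFD). None of 9 smooth muscle genes did (median 0.25, sums 3150 and 2820 on the same arrays), nor any of 10 pancreatic acinar genes (median -0.04, sums 475 and 496). The keratinocyte markers *Krt5* and *Krt1* were below background on all 4 arrays, and of the 8 in that list none was resolved at 1.5-fold: *Lor* (0.64) lay below background on both HFD arrays, and *Dsp* was at least 1.23-fold higher in cKO-HFD than in WT-HFD, where it lay below background. Of 9 brown and beige markers *Elovl3* passed 1.5-fold (0.93) but lay below background on cKO-HFD and WT-HFD, and *Cox7a1*, a cytochrome c oxidase subunit that heart, muscle and brown fat share, fell, with 8.26 on cKO-HFD, 9.78 on WT-HFD, 10.15 on cKO-CT and 10.96 on WT-CT. Other lists differed from WT-CT more. The acinar genes summed to 475 on cKO-HFD, 496 on WT-HFD, 432 on cKO-CT and 1790 on WT-CT, with median log2 ratios of -1.84 in WT-HFD over WT-CT and -2.02 in cKO-CT over WT-CT. Smooth muscle genes summed to 3150 on cKO-HFD, 2820 on WT-HFD, 2950 on cKO-CT and 1410 on WT-CT. Of these 9 genes, *Acta2* and *Synpo2* rose in WT-HFD over WT-CT, 2.40-fold and 3.23-fold, and also in cKO-CT over WT-CT. The brown and beige genes summed to 2540 on cKO-HFD, 3330 on WT-HFD, 6770 on cKO-CT and 12500 on WT-CT, with medians of -1.45 in WT-HFD over WT-CT and -0.74 in cKO-CT over WT-CT. The part of these markers in the muscle ratios over WT-CT was not tested.

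**Figure D5:**
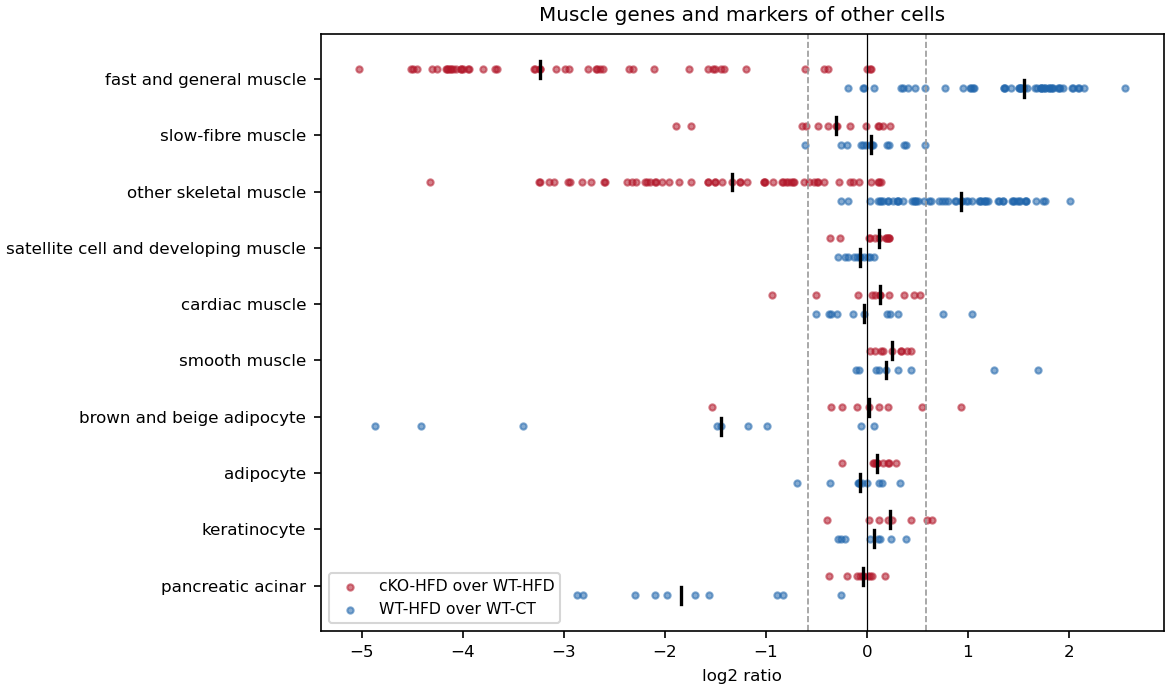
Log2 ratio (horizontal axis) of each gene in the fast and general muscle list and in 9 other lists, for cKO-HFD over WT-HFD and WT-HFD over WT-CT, with 1 point per gene, black bars at the list medians and dashed lines at 1.5-fold. The medians of the fast and general muscle list lie at -3.24 and 1.56 and those of other skeletal muscle at -1.34 and 0.93, while the slow-fibre medians lie at -0.31 and 0.04. Most of the slow-fibre genes had levels near background.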

How the data were processed

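SAT RNA, pooled within each of the 4 groups, was hybridized to MoGene 1.0 ST arrays. The deposited values are log2 levels that the authors made with RMA (RMA-Sketch of the APT suite in the methods, Affymetrix Expression Console in the processing notes). RMA corrects background, normalizes across arrays and summarises probes, so levels are relative to the other arrays. Detection filters named in the methods were not applied here. The array number limits precision.

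Of 35556 probe sets, 21789 had 1 name in the platform annotation, which can be old, 1621 had several and 12146 had none. The members and lists were chosen with earlier results of these data known, from this study's table and an earlier analysis. Any member could be named. From other lists, up to 4 genes with the largest cKO-HFD over WT-HFD ratio above background were named. *Pax7* was named from a list near background, in which *Myod1* and *Mymk* had higher levels on WT-HFD and cKO-CT. *Myod1*, *Mymk*, *Myh6*, *Elovl3*, *Myl2*, *Myoz2*, *Tnnc1*, *Atp2a2*, *Csrp3*, *Acta2*, *Synpo2*, *Krt5*, *Krt1*, *Dsp* and *Lor* were named after their values were seen. Log2 ratios were called at 1.5-fold, with no test. Only the ratio and call steps were checked on simulated data.

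The alternatives were the brightest probe set, 2 background filters, 2-fold, median centring, cyclic loess (span 0.7, 3 iterations) and leaving out the 6 members in the study's list. Python 3.11.15 (numpy 2.4.6, pandas 2.3.3, matplotlib 3.10.9) and R 4.3.3 (limma 3.58.1) were used.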

Additional observations from a re-analysis of the deposited data

Results flagged for a closer look

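For most members, HFD over CT was down between the cKO arrays and up between the WT arrays. The median over the members of the cKO-HFD minus cKO-CT difference less the WT-HFD minus WT-CT difference was -3.04 on the log2 scale. Of the members above background on all 4 arrays, 29 fell in cKO-HFD over cKO-CT and rose in WT-HFD over WT-CT, both past 1.5-fold. With 1 array per group the difference was not tested.

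Among these 29 members, the differences of diet ratios (cKO less WT) beyond -4 on the log2 scale were those of *Pygm* (-4.89), *Myh4* (-4.70), *Mybpc2* (-4.60), *Myoz1* (-4.45), *Ckm* (-4.39), *Actn3* (-4.19), *Tnnc2* (-4.10), *Pvalb* (-4.03), *Neb* (-4.02) and *Ryr1* (-4.01). Between -4 and -3 lay *Atp2a1* (-3.96), *Eno3* (-3.95), *Ttn* (-3.89), *Tnnt3* (-3.80), *Mylpf* (-3.67), *Acta1* (-3.63), *Tnni2* (-3.63), *Pgam2* (-3.43), *Myot* (-3.29), *Casq1* (-3.23), *Cmya5* (-3.19) and *Tpm2* (-3.04). Those nearer to 0 were *Cacna1s* (-2.69), *Mylk2* (-2.66), *Pfkm* (-2.66), *Myom1* (-2.54), *Myl1* (-2.48), *Ldb3* (-2.34) and *Fbxo32* (-1.70). Members below background on cKO-HFD are left out of these 29, *Mylk4* (-5.65), *Xirp2* (-4.03) and *Ampd1* (-3.92) among them, since the size of their cKO diet ratios is open. In cKO-HFD over cKO-CT these 3 genes fell at least 7.55-fold (*Mylk4*), 2.56-fold (*Xirp2*) and 3.25-fold (*Ampd1*). The fast genes *Myh1* and *Myh2* are outside these 29 too, since neither passed 1.5-fold in cKO-HFD over cKO-CT or in WT-HFD over WT-CT. *Myh2* also lay below background on cKO-HFD.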

How the results depend on the processing

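Under the alternatives, 80 list values (counts of members and medians) stayed within 1.5 times or within the robust SD of all genes (0.20 to 0.32 on the log2 scale), and 6 moved. The median of cKO-HFD over WT-HFD was -3.48 over members above background on both arrays. In cKO-CT over WT-CT, the count of members that rose, 1 in the main setting, was 0 at 2-fold, 0 after cyclic loess and 0 without the 6 members in the study's list. The count that fell there, 4 in the main setting, was 1 at 2-fold and 1 without those 6 members. No list median and no call changed sign, while some members with ratios near 0 between cKO-CT and WT-CT did, such as *Mybpc2* (0.08, and -0.01 after cyclic loess). For single members 585 values stayed within the robust SD and 3 moved, all with the brightest probe set (*Trdn* and *Jph1*). Cyclic loess ended the call of *Mylk4* (0.53) and added that of *Myot* (-0.60) between cKO-CT and WT-CT. The brightest probe set ended that of *Jph2* (-0.48) between cKO-HFD and WT-HFD. No replicate could be left out, and no paired analysis was possible because each group has 1 array. Ratios of members below background on 1 array are bounds.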
